A study of Mus musculus with 4 samples.

Results

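The genes described here are 8 whose products act when broken meiotic DNA invades a homologous chromosome: *Dmc1*, *Rad51ap2*, *Hsf2bp*, *Meiob*, *Spata22*, *Mnd1*, *Psmc3ip* and *Brca2*. They were chosen by name, and all 8 were among the 32285 genes counted. Transcripts were counted as unique molecular identifiers (UMIs, 1 per captured RNA molecule) in single cells of dissociated testes from C57BL/6N mice at postnatal day 15, an age at which the first wave of germ cells has reached meiotic prophase. There were 4 libraries, each from 1 testis of 1 mouse: 2 wild-type and 2 *Meioc*-null (labelled *Meioc* KO), with 1 littermate of each genotype in each of the 2 batches. All 4 mice, controls included, were also heterozygous for the *Hspa2* tm1Dix allele and homozygous for a *ROSA26* tdTomato reporter whose stop cassette was intact. The product of *Meioc* is found in germ cells, where it forms a complex with YTHDC2 and RBM46 that binds transcripts as cells leave mitosis for meiotic prophase.

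In meiotic prophase the SPO11 complex cuts DNA, and the ends are trimmed to single strands. RPA and the meiosis-specific pair MEIOB and SPATA22 coat these strands. BRCA2, with the germ-cell protein HSF2BP bound to it, helps to load the meiotic recombinase DMC1, which forms the filament that searches for and invades the homolog. RAD51AP2 is a meiotic protein of the same pathway, and PSMC3IP (also called HOP2) and MND1 form a dimer that stimulates strand invasion by the loaded filament. Mouse spermatocytes without DMC1, or without most of the other proteins in this list, fail to repair their breaks and arrest in prophase.

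On GRCm38 (GENCODE vM21), *Dmc1* lay on chromosome 15 from 79561497 to 79605109 (minus strand), *Brca2* on chromosome 5 from 150522630 to 150570329 (plus) and *Hsf2bp* on chromosome 17 from 31944769 to 32036349 (minus). *Meiob* lay on chromosome 17 from 24804289 to 24839788 (plus), *Spata22* on chromosome 11 from 73329741 to 73346044 (plus) and *Rad51ap2* on chromosome 12 from 11456079 to 11462928 (plus). *Psmc3ip* lay on chromosome 11 from 101091823 to 101095436 (minus) and *Mnd1* on chromosome 3 from 84087933 to 84155786 (minus). All are protein-coding. *Spata22* overlaps another gene model on the same strand, *Gm49340* (protein-coding), so the *Spata22* counts are uncertain. *Brca2* and *Dmc1* also overlap models on their own strand, *Gm42531* (sense intronic) and *Gm27903* (a miRNA). *Psmc3ip* and *Hsf2bp* overlap *Mlx* and *Rrp1b* on the opposite strand.

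Promoter sequence (RefSeq, GRCm38.p6, 250 bases before to 50 after the start) was matched by symbol for 7 of the 8 genes. It is shown from 100 bases before the start to 50 after, 5′ to 3′ on the strand of the gene, because all 7 hold one short word near the start. Capitals mark GCGGGA, the core of E2F sites, read on either strand (TCCCGC on the other).

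Dmc1 (chr15:79605060-79605209, minus strand): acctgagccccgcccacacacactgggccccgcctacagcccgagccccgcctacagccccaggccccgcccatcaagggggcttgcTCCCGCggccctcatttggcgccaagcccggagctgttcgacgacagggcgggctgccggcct
Brca2 (chr5:150522521-150522670, plus strand): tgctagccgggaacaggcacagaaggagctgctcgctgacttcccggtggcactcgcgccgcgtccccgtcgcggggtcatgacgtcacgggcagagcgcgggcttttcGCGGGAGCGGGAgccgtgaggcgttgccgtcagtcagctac
Hsf2bp (chr17:32034459-32034608, minus strand): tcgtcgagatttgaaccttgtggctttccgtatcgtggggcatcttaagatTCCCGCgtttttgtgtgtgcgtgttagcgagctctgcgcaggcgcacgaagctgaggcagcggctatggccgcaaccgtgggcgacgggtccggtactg
Spata22 (chr11:73329641-73329790, plus strand): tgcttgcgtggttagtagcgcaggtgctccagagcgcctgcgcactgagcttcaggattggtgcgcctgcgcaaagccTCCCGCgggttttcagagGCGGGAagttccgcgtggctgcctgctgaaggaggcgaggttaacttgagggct
Rad51ap2 (chr12:11455955-11456104, plus strand): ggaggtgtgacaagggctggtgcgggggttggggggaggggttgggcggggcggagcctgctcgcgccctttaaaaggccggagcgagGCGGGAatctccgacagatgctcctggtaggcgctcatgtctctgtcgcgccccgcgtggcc
Psmc3ip (chr11:101095386-101095535, minus strand): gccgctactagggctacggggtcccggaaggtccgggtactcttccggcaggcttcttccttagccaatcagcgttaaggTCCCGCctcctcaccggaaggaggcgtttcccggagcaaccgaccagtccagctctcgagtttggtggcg
Mnd1 (chr3:84155737-84155886, minus strand): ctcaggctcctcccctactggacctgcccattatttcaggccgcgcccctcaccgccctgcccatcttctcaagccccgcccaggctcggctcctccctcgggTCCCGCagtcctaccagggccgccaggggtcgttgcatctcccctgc

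The word was in 7 of the 7 promoters of 300 bases, and in 20.0% of all 32851 promoters of the same length. It began 12 or 13 bases before the start in *Rad51ap2* and *Dmc1*, 20 bases before it in *Psmc3ip*, and 22 and 4 bases before it in *Spata22*. *Brca2* held 3 copies, of which the one 168 bases before the start lies outside the stretch shown, as does a further one in *Dmc1* 240 bases before the start. G and C made up between 53.7 and 69.0% of these promoters against a median of 52.7% over all, and the part of that in the match was not tested. Of 3 other words searched on both strands, CNCCTCAG (the STRA8-MEIOSIN word, in 7.94% of all promoters), CACGTG (the E-box, 7.15%) and AACNGTT (a MYB word, 4.45%) were in none of the 7. The RefSeq start of *Hsf2bp* lies inside the GENCODE gene, downstream of its 5′ end at 32036349, so the *Hsf2bp* stretch is near the start in RefSeq only. The words were chosen after the sequences had been seen, and a match is a description of letters.

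The libraries held 11986 to 16486 barcodes. Barcodes with over 1000 detected genes and under 10% mitochondrial UMIs numbered 6334 and 8494 for the wild-type mice (replicates 1 and 2) and 7550 and 7214 for the *Meioc*-null mice, and 4267, 6021, 5062 and 4933 of them were germ cells after doublets and a shallow cluster with germ markers were removed. Any 2 libraries shared 12 to 16 barcodes (at most 0.253% of the smaller library). Summed over germ cells (in CPM, UMIs per 1000000), *Meioc* itself was counted at 293 and 292 CPM in wild type and at 342 and 282 CPM in *Meioc*-null. The tags come from the 3′ end of the transcript, no source used here says whether the null allele removes that end, and the level therefore checks no label. Wild-type germ cells formed 11 clusters, with the 8 genes and related lists kept out of the clustering, and cells of every library were assigned to a cluster by their closest wild-type neighbours. Markers placed cluster 1 with undifferentiated spermatogonia and clusters 2 to 6 with differentiating ones. Cluster 7, where *Stra8* peaked, was preleptotene-like, clusters 9 and 10 resembled early spermatocytes, and cluster 11 expressed pachytene markers. Cluster 8, with *Prdm9* among its leading genes, held markers of both neighbours and stays unnamed. Position is the rank of a cell along the wild-type order, from 0 to 100%.

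In wild type, 6 of the 8 genes reached 50% of their highest level between positions of 60.6% and 72.1%, and *Psmc3ip* and *Mnd1* did so later, from 86.1% on. Levels are given in CPM (UMIs per 1000000 in the summed cells of a cluster). Onset is the position at which a gene first reached 25% of its highest level over 20 bins along the order. *Brca2* reached it at 36.6% and 51.5% (wild-type replicates 1 and 2), *Hsf2bp* at 51.1% and 52.2%, and *Dmc1* at 55.6% and 55.3%. *Spata22* followed at 63.7% and 63.6%, *Rad51ap2* at 66.2% and 65.2%, and *Meiob* at 68.3% and 66.9%. *Psmc3ip* came at 76.7% and 72.9%, and *Mnd1* last, at 84.2% and 83.5%. Read by cluster, where its maxima were 136 and 168 CPM, *Mnd1* stood above 25% already in cluster 1, so its place in the order holds for the binned reading only. All 28 pairs of genes stood in the same order in both libraries, and in 27 of them the positions of the libraries did not overlap, the exception being *Brca2* and *Hsf2bp*. Read at 50% of the maximum, 27 pairs had 1 order, and *Psmc3ip* (90.8% and 90.2%) then came after *Mnd1* (87.5% and 86.1%). At 10% of the maximum, 22 pairs had 1 order, and 8 of these were opposite to that at 25%. At 25% the order thus ran from the loading genes *Brca2* and *Hsf2bp* through *Dmc1*, *Spata22*, *Rad51ap2* and *Meiob* to the accessory dimer, a description of 2 libraries with no test.

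**Figure D1:**
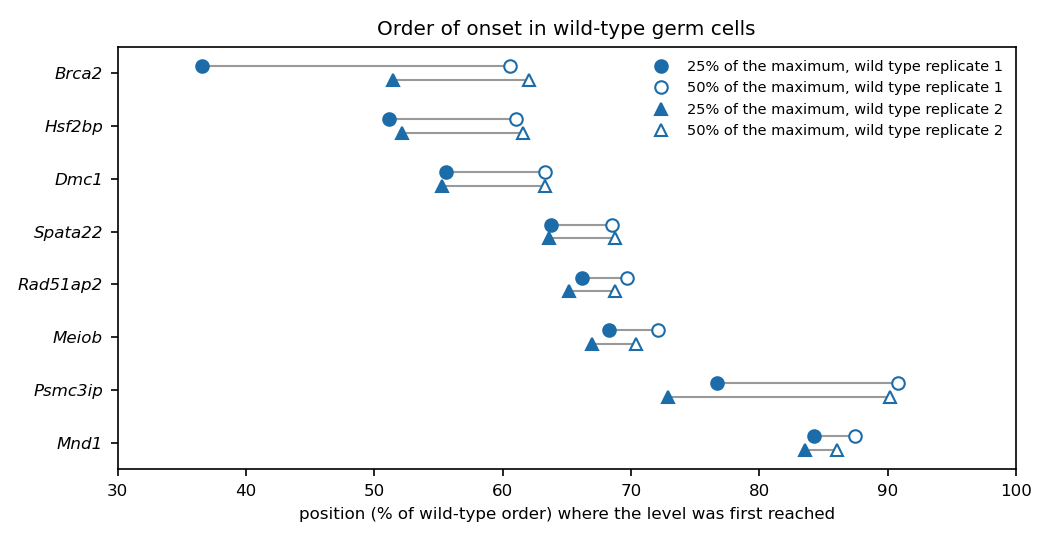
Position along the wild-type order (x axis, %) at which each gene (rows) first reached 25% (filled) and 50% (open) of its highest level, for wild-type replicate 1 (circles) and replicate 2 (triangles). *Brca2*, *Hsf2bp* and *Dmc1* sit to the left and *Psmc3ip* and *Mnd1* to the right in both libraries, and the positions for *Brca2* at 25% are the farthest apart, at 36.6% and 51.5%.

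The 8 genes can be set beside other meiotic genes. The median position of onset of the 8 was 65.0% and 64.4%, against 54.3% and 55.0% for 7 genes of break formation and 51.8% and 51.5% for 10 genes of the synaptonemal complex and chromosome axis. At 50% of the maximum these medians were 69.1% and 68.7%, 62.0% and 63.8%, and 67.6% and 67.2%. The lists were chosen by function and the difference between them was not tested.

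*Dmc1*, the meiosis-specific recombinase, was counted at 20.8 and 18.6 CPM in wild-type undifferentiated spermatogonia (cluster 1) and at 59.5 and 62.3 CPM in cluster 6. It rose to 229 and 230 CPM in cluster 7, 468 and 474 CPM in cluster 8 and 490 and 506 CPM in cluster 9. It then fell to 143 and 137 CPM in cluster 10 and 40.4 and 57.5 CPM in pachytene spermatocytes. The wild-type libraries differed little next to these steps.

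The genes of loading were present before meiosis. *Brca2* stood between 131 and 187 CPM in clusters 1 to 6 of wild type, rose to 397 and 421 CPM in cluster 7 and 697 and 792 CPM in cluster 8, and was at 712 and 790 CPM in cluster 9 before it dropped to 174 and 206 CPM in cluster 10. *Hsf2bp* was low in cluster 3, at 16.8 and 14.3 CPM, and rose through cluster 6 (78.6 and 66.7 CPM) and cluster 7 (201 and 172 CPM) to 340 and 317 CPM in cluster 8. It fell to 103 and 99 CPM in cluster 10 and was higher again in pachytene spermatocytes, at 184 and 167 CPM.

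The single-strand binding pair started low. *Meiob* was at 1.19 to 6.86 CPM in clusters 1 to 6 of wild type, at 27.2 and 39.6 CPM in cluster 7, and at 199 and 222 CPM in cluster 8, and it was highest in cluster 10, at 371 and 343 CPM. *Spata22* was counted less, with 0.696 to 3.17 CPM in clusters 1 to 6 and a peak of 41.8 and 50.9 CPM in cluster 9. *Rad51ap2* was at 1.24 to 9.03 CPM in clusters 1 to 6 and went from 69.1 and 91.5 CPM in cluster 7 to 450 and 530 CPM in cluster 8, and it was highest in cluster 10, at 600 and 651 CPM. These 3 genes were thus low in spermatogonia and higher in spermatocytes of both wild-type libraries, with *Spata22* counted least. Somatic peritubular myoid cells had *Rad51ap2* at 16.7 to 26.7 CPM over the 4 libraries, above its spermatogonial values in wild type. The reason for this was not tested. Over the 22 wild-type library by cluster values the levels of *Meiob*, *Rad51ap2* and *Spata22* ran closest together of all pairs of the 8 (Pearson's r between 0.972 and 0.982), a description of values that share libraries and clusters.

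The 2 genes of the accessory dimer did not rise together. *Mnd1* rose and fell more than once. It stood at 46.8 and 47.0 CPM in undifferentiated spermatogonia and fell to 5.48 and 3.45 CPM in cluster 3. It rose to 31.5 and 32.9 CPM in cluster 6 and 35.3 and 28.8 CPM in cluster 7, and fell to 9.68 and 10.3 CPM in cluster 9. It then reached 136 and 144 CPM in cluster 10 and 105 and 168 CPM in cluster 11. *Psmc3ip* was counted in all clusters. It rose from 41.2 and 46.1 CPM in cluster 1 to 111 and 109 CPM in cluster 4 and fell to 77.1 and 68.9 CPM in cluster 6. It then rose to 167 CPM in both libraries in cluster 10 and was highest, at 548 and 464 CPM, in pachytene spermatocytes. The r between the dimer's genes was 0.428 over the same 22 values.

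**Figure D2:**
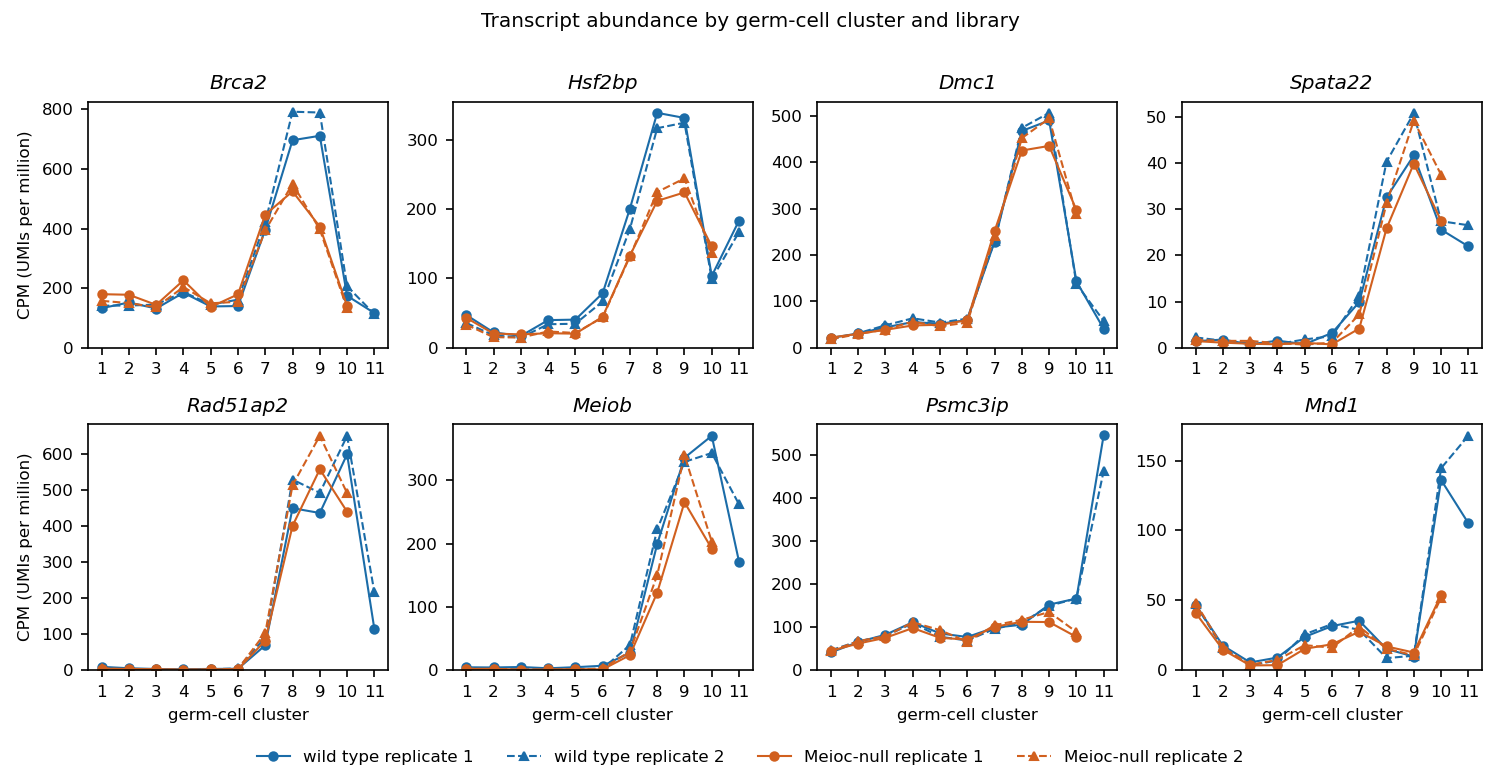
CPM (y axis, a scale for each gene, from 0) of the 8 genes in germ-cell clusters 1 to 11 (x axis), with 1 line per library: wild type in blue, *Meioc*-null in orange, replicate 1 as circles and replicate 2 as triangles. *Dmc1* is higher in both *Meioc*-null libraries in cluster 10, *Hsf2bp* is lower in both from cluster 4 to cluster 9, and *Meioc*-null lines end at cluster 10 because no *Meioc*-null cell was placed in cluster 11.

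The genes with the pattern most like each of the 8, among 9385 others with at least 20 CPM in a wild-type cluster, were ranked by the same r. *Dmc1* was followed by *Dnajb11* (0.989), *Nek1* (0.979) and *Eef1akmt2* (0.976), *Brca2* by *Myo9a* (0.965), *Nek1* (0.964) and *Alms1* (0.962), and *Hsf2bp* by *Supt3* (0.989), *Pigf* (0.981) and *Tex12* (0.978), a gene of the synaptonemal complex. *Spata22* was followed by *Hfm1* (0.989), a meiotic helicase gene, *Grk4* (0.986) and *2810402E24Rik* (0.982). *Rad51ap2* was followed by *Meiob* (0.982), *Hfm1* (0.981) and *Spata22* (0.976), and *Meiob* by *Rad51ap2*, *Myo1a* (0.977) and *Spata1* (0.976). *Psmc3ip* was most like *Bbof1* (0.965), *Wdr35* (0.959) and *Ybx2* (0.950), and *Mnd1* most like *Brd1* (0.933), *Dcaf8* (0.899) and *Chd1* (0.890).

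To compare cells of unequal depth, each cell with at least 5000 UMIs was thinned to that number, which kept 90 to 136 of the 292 to 444 Sertoli cells of a library, the deeper ones, and 530 to 686 of the 554 to 736 myoid cells. The median number of the 8 genes with a UMI was then 1 in clusters 1 to 6 of every library, 3 in cluster 7, 5 in clusters 8 and 9 of wild type and 4 in cluster 10. In somatic cells it was 0, and 63.3 to 77.9% of Sertoli and myoid cells had none. *Dmc1* had a UMI in 93.4% and 91.1% of thinned wild-type cells of cluster 9 (98.7% and 97.9% unthinned), against 1.47 to 7.78% of Sertoli cells and 1.70 to 5.24% of myoid cells over the 4 libraries (7.04 to 10.4% unthinned). *Spata22* had a UMI in 17.8% and 22.5% of thinned cells of cluster 9 (34.4% and 38.1% unthinned) and in at most 0.377% of either somatic type. *Mnd1* in cluster 9, at 6.58% and 4.47% of cells, was at the level of Sertoli cells (3.42 to 6.67%, and unthinned, 10.4% and 10.1% against 5.58 to 9.93%), and of myoid cells (4.91 to 5.43%). Whether that low stretch is background was not tested. In cluster 10 *Mnd1* was at 38.1% and 44.2% (67.1% and 67.7% unthinned). The median depth of cluster 9 was 9461 to 12708 UMIs per cell, that of myoid cells was 8406.5 to 11377 UMIs and that of Sertoli cells 2313.5 to 3596 UMIs.

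By this placement *Meioc*-null germ cells fell in clusters up to 10 and none fell in cluster 11. Every germ cell took a wild-type cluster, however far it lay from wild-type cells. The authors' own clustering of these data gave some *Meioc*-null cells a pachytene label. It also found a cluster made up mainly of *Meioc*-null cells, mostly in G2/M phase. Of wild-type germ cells 17.5% and 12.5% lay in cluster 7, against 33.2% and 24.7% of *Meioc*-null ones, cluster 10 held 8.13% and 14.6% against 4.01% and 5.66%, and cluster 11 held 7.41% and 6.61% against 0 of 5062 and 0 of 4933 (exact binomial upper bounds of 0.0728% and 0.0748%, for counting error only). Inside cluster 10 the genotypes also stood apart: the median position was 87.6% and 87.3% in wild type and 84.4% in both *Meioc*-null libraries, and the stretch above the wild-type median held 178 and 436 wild-type cells but 7 and 17 *Meioc*-null cells. The results in cluster 10 are therefore also given for the cells below that median (169 and 446 wild-type, 196 and 262 *Meioc*-null), a choice made after seeing the data. *Stra8*, a marker of the preleptotene stage, was still at 503 and 477 CPM in *Meioc*-null cells of cluster 10 against 15.8 and 17.9 CPM in wild type. It was at 1638 and 1815 CPM against 548 and 580 CPM in cluster 8, and at 1111 and 1092 CPM against 102 and 87.0 CPM in cluster 9. In each cluster that both genotypes shared, *Stra8* was higher in both *Meioc*-null libraries. In the spermatogonia of cluster 3 it was at 228 and 179 CPM against 65.9 and 68.7 CPM. The authors report that MEIOC lowers *Stra8* in these data, so its level alone cannot place *Meioc*-null cells at a stage. The part of these shifts in the differences was not tested beyond these values, and in summed cells fewer cells of a stage and fewer transcripts per cell cannot be told apart.

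Genotypes were compared with edgeR's quasi-likelihood test on UMIs summed per library and cluster, with Benjamini-Hochberg adjustment over all genes of the cluster. Log2 fold changes are wild type over *Meioc*-null, with their standard error, and a gene was called at an adjusted p under 0.05 and a fold change over 0.1 in size. All 8 genes were tested in clusters 1 to 10.

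In spermatogonia few of the 8 differed. None was called in clusters 1 to 4, where 0%, 0.00632%, 0.0482% and 0.0232% of all genes were called, though the unadjusted p of 3, 1, 2 and 2 of the 8 lay under 0.05. Of all genes tested there, it did so for 313 of 16028, 250 of 15815, 411 of 14522 and 431 of 12930. DESeq2 made no call among the 8 in these clusters, where it called 4, 7, 16 and 7 of all genes. In cluster 5 (0.142% of all genes called) *Hsf2bp* was called, at 40.4 and 34.4 CPM in wild type against 20.1 and 21.1 CPM in *Meioc*-null (0.90, SE 0.14, adjusted p = 0.045). In cluster 6 (1.3% of all genes) *Hsf2bp* and *Mnd1* were called. *Hsf2bp* stood at 78.6 and 66.7 CPM against 44.4 and 43.6 CPM (0.76, SE 0.14, adjusted p = 0.000798), and *Mnd1* at 31.5 and 32.9 CPM against 18.5 and 16.0 CPM (0.93, SE 0.18, adjusted p = 0.0014). Both were higher in wild type in both batches, and the groups did not overlap. DESeq2 with Benjamini-Hochberg adjustment called neither gene in cluster 6 and not *Hsf2bp* in cluster 5 (adjusted p = 0.0761, 0.127 and 0.121). Of all genes it called only 29 in cluster 6 and 16 in cluster 5. With placement of cells by genes not called between genotypes these calls were lost too, at 0.70 and 0.87 in cluster 6 (adjusted p = 0.0686 and 0.0518) and at 0.52 in cluster 5 (adjusted p = 0.107), the last over 1.5 times smaller. *Hsf2bp* in cluster 6 was lost without wild-type replicate 1 (adjusted p = 0.0855). With the littermate pair as a block, *Hsf2bp* was called from cluster 4 (0.74, adjusted p = 1.5e-05), *Mnd1* also in cluster 5 (0.62, adjusted p = 0.00154) and *Spata22* in cluster 6 (1.80, adjusted p = 0.0327, on 5 to 18 UMIs per library). It also called *Meiob* in clusters 3, 5 and 6, on 3 to 56 UMIs per library, which made 1, 1, 3 and 4 genes called in clusters 3 to 6, where the block called 1.87%, 2.41%, 6.47% and 4.75% of all genes. Myoid cells had *Meiob* at 2.69 and 2.11 CPM in wild type against 0.844 and 0.464 CPM in *Meioc*-null, and the part of this in the *Meiob* calls was not tested. Over the 4 libraries, myoid cells had *Hsf2bp* at 0.743 to 3.53 CPM, *Spata22* at 0.0928 to 0.659 CPM and *Mnd1* at 10.3 to 11.3 CPM. *Meiob* was at 6.86 and 2.20 CPM against 1.10 and 2.53 CPM in cluster 6, and wild-type replicate 2 lay between the *Meioc*-null libraries.

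At the preleptotene stage *Hsf2bp* was lower without *Meioc*, and the *Dmc1* difference did not pass the test. In cluster 7 (13.4% of all genes called) 1 of the 8 was called, *Hsf2bp*, at 201 and 172 CPM in wild type against 133 and 132 CPM in *Meioc*-null (0.53, SE 0.10, adjusted p = 0.0064). *Dmc1* was at 229 and 230 CPM against 251 and 241 CPM (-0.06, SE 0.11, adjusted p = 0.785), and *Brca2* at 397 and 421 CPM against 446 and 394 CPM (0.01, SE 0.13, adjusted p = 0.976). *Spata22* was at 9.88 and 11.2 CPM against 4.14 and 7.19 CPM, and the groups did not overlap, but the difference missed the threshold (0.94, SE 0.30, adjusted p = 0.0666). The block called *Spata22* (0.98, adjusted p = 2.35e-06) and *Meiob* (0.36, adjusted p = 0.00727), 3 genes in all, against 30.5% of all genes. *Meiob*, at 0.38 and not called without the block, was also called without wild-type replicate 1 (0.68, adjusted p = 0.0065) and with placement by genes not called between genotypes (1.21, adjusted p = 0.00251). *Spata22* was also called without a filter on low counts (adjusted p = 0.00175), with library size only (0.0438), with 15 neighbours (0.0405), with placement by genes not called between genotypes (0.000689), without wild-type replicate 1 (0.0249) and without *Meioc*-null replicate 2 (0.00049). *Rad51ap2* was not called in the main fit (-0.16, adjusted p = 0.736). With placement by genes not called between genotypes it changed sign and was called higher in wild type (0.72, adjusted p = 0.0234).

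In cluster 8 (32.2% of all genes called) 3 of the 8 were called, all higher in wild type. *Hsf2bp* was at 340 and 317 CPM against 212 and 225 CPM (0.71, SE 0.12, adjusted p = 0.000367), *Meiob* at 199 and 222 CPM against 123 and 150 CPM (0.75, SE 0.14, adjusted p = 0.00109), and *Brca2* at 697 and 792 CPM against 525 and 550 CPM (0.60, SE 0.16, adjusted p = 0.00824). *Dmc1* was at 468 and 474 CPM against 425 and 452 CPM (0.23, SE 0.14, adjusted p = 0.237), *Rad51ap2* at 450 and 530 CPM against 401 and 514 CPM (0.23, SE 0.17, adjusted p = 0.354) and *Spata22* at 32.6 and 40.4 CPM against 25.9 and 31.3 CPM (0.49, SE 0.19, adjusted p = 0.0565). The groups overlapped for *Rad51ap2* alone among these 3. The block called all 3 (adjusted p = 0.013, 0.0134 and 0.0101), 6 in all, against 44.1% of all genes. *Spata22* was also called with DESeq2 size factors in edgeR (adjusted p = 0.0443), with genes kept only if 25% of cells had a UMI (0.046), without doublet removal (0.0436), without wild-type replicate 1 (0.0051) or *Meioc*-null replicate 2 (0.0137), and with placement by genes not called between genotypes (1.01, adjusted p = 0.004). Without wild-type replicate 2 *Brca2* was lost (0.46, adjusted p = 0.129), which left 2 genes (23.7% of all genes), and without *Meioc*-null replicate 2 there were 5 (32.5%). *Mnd1* and *Psmc3ip* stood at -0.36 and 0.04 and were not called. With placement of cells by genes not called between genotypes, 7 of the 8 were called here against 34.2% of all genes, *Dmc1* (0.45, adjusted p = 0.0243), *Rad51ap2* (0.59, adjusted p = 0.0312) and, higher in *Meioc*-null, *Mnd1* (-0.76, adjusted p = 0.0341) among them. Scaling by TMM moved all genes of this cluster by 0.13 on the log2 scale towards wild type, a shift larger than the *Psmc3ip* value.

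In cluster 9 (33.9% of all genes called) *Brca2* and *Hsf2bp* were lower in *Meioc*-null. *Brca2* was at 712 and 790 CPM against 406 and 397 CPM (0.92, SE 0.18, adjusted p = 0.000421) and *Hsf2bp* at 332 and 325 CPM against 224 and 245 CPM (0.50, SE 0.16, adjusted p = 0.0175). *Dmc1* overlapped between genotypes, at 490 and 506 CPM against 435 and 494 CPM (0.11, SE 0.18, adjusted p = 0.659), as did *Meiob* (0.14, adjusted p = 0.561) and *Spata22* (0.10, adjusted p = 0.704). With fewer germ clusters *Meiob* was called (0.47, adjusted p = 0.0201) in a cluster that matched clusters 8 and 9 together. *Rad51ap2* was higher in both *Meioc*-null libraries, at 559 and 652 CPM against 437 and 493 CPM, and was called with the block (-0.36, adjusted p = 0.00704) but not in the fit without it (-0.37, SE 0.18, adjusted p = 0.134). It was also called with library size only (adjusted p = 0.0283), with genes kept only if 25% of cells had a UMI (0.0409) and without *Meioc*-null replicate 1 (-0.54, adjusted p = 0.0089). *Psmc3ip* (0.30) and *Mnd1* (-0.16) were not called. *Hsf2bp* was lost without wild-type replicate 1 (adjusted p = 0.0677) or 2 (0.162), which left 1 gene (24.9% and 18.9% of all genes), and without *Meioc*-null replicate 2 there were 4 (40% of all genes), with *Meiob* (0.41, adjusted p = 0.0182) and *Psmc3ip* (0.52, adjusted p = 0.0014) added. In *Meioc*-null replicate 1, 40 of the 267 cells of this cluster lay farther from wild-type cells than 99% of wild-type cells did, against 6 of 228 in replicate 2.

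In cluster 10, 7 of the 8 genes differed, in both directions, against 52.4% of all genes. *Dmc1* was higher without *Meioc*, at 297 and 287 CPM against 143 and 137 CPM in wild type (-0.99, SE 0.12, adjusted p = 6.99e-09), and so was *Hsf2bp*, at 146 and 137 CPM against 103 and 99 CPM (-0.41, SE 0.11, adjusted p = 0.00185). *Mnd1* was lower without *Meioc*, at 53.7 and 51.7 CPM against 136 and 144 CPM (1.49, SE 0.12, adjusted p = 1.54e-13), as was its partner *Psmc3ip*, at 77.2 and 88.8 CPM against 167 CPM in both wild-type libraries (1.06, SE 0.12, adjusted p = 9.62e-10). *Meiob* was at 192 and 203 CPM against 371 and 343 CPM (0.92, SE 0.13, adjusted p = 2.45e-07), *Brca2* at 139 and 132 CPM against 174 and 206 CPM (0.57, SE 0.12, adjusted p = 0.00016) and *Rad51ap2* at 441 and 492 CPM against 600 and 651 CPM (0.49, SE 0.16, adjusted p = 0.009). *Spata22* was not called, at 27.5 and 37.5 CPM against 25.6 and 27.4 CPM (-0.25, SE 0.17, adjusted p = 0.224). The groups of 2 did not overlap for any of the 8, though those of *Spata22* all but touched, and each difference had the same direction in both batches. *Rad51ap2* was lost without wild-type replicate 2 (adjusted p = 0.154) or *Meioc*-null replicate 1 (0.127), and *Spata22* was called without *Meioc*-null replicate 1 (-0.49, adjusted p = 0.0176). With fewer germ clusters *Hsf2bp* was lost (-0.20, adjusted p = 0.145).

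Among the earlier cells of cluster 10, where 47.8% of all genes were called, 6 of the 8 were called. *Brca2* differed more than in the whole cluster, at 295 and 339 CPM in wild type against 142 and 137 CPM in *Meioc*-null (1.19, SE 0.13, adjusted p = 5.85e-10). *Mnd1* differed less, at 62.5 and 79.4 CPM against 53.8 and 51.2 CPM (0.48, SE 0.14, adjusted p = 0.0051), as did *Dmc1*, at 202 and 183 CPM against 298 and 291 CPM (-0.62, SE 0.13, adjusted p = 9.12e-05). *Meiob* (1.02), *Psmc3ip* (0.71) and *Hsf2bp* (-0.58) kept their direction and their call. *Rad51ap2* lost its call (0.36, adjusted p = 0.067), and *Spata22* stood at -0.09.

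**Figure D3:**
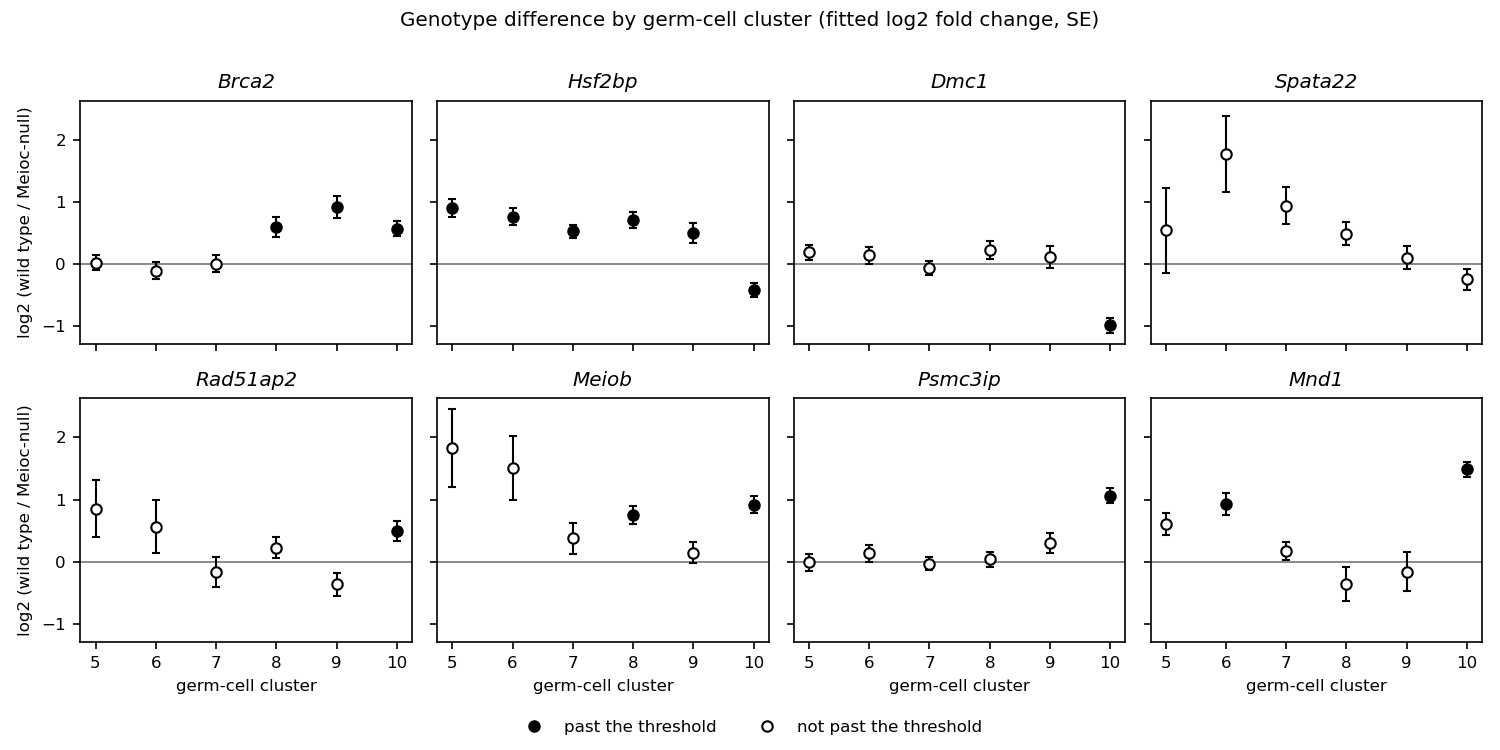
Fitted log2 fold change of wild type over *Meioc*-null (y axis) for the 8 genes in clusters 5 to 10 (x axis). Points are estimates from 2 libraries per genotype, bars reach 1 SE to each side, filled points passed the threshold. *Hsf2bp* is above 0 from cluster 5 to cluster 9 and below 0 in cluster 10, *Dmc1* leaves 0 in cluster 10 at -0.99, and *Mnd1* is at its highest in cluster 10, at 1.49.

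Along the wild-type order the same genes could be read at matched positions. At a position of 78.2%, where *Brca2* was at 768 and 820 CPM in wild type, it was at 399 and 406 CPM in *Meioc*-null, and at 83.1% it was at 412 and 473 CPM against 168 and 142 CPM. *Dmc1* at 83.1% was at 292 and 263 CPM against 314 and 306 CPM, and at 87.6% at 107 and 111 CPM against 213 and 222 CPM. *Brca2* was thus lower in both *Meioc*-null libraries at 78.2% and 83.1%, and *Dmc1*, which was lower in both at 78.2% (527 and 522 CPM against 458 and 505 CPM), was higher in both at 83.1% and 87.6%. *Meiob* at 83.1% was at 406 and 392 CPM against 207 and 220 CPM. *Mnd1* was slightly higher in *Meioc*-null at 83.1% (38.0 and 46.2 CPM against 49.3 and 50.7 CPM) and lower there at 87.6% (122 and 149 CPM against 78.3 and 54.6 CPM), where the *Meioc*-null libraries held 33 and 45 cells. These values were not tested.

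**Figure D4:**
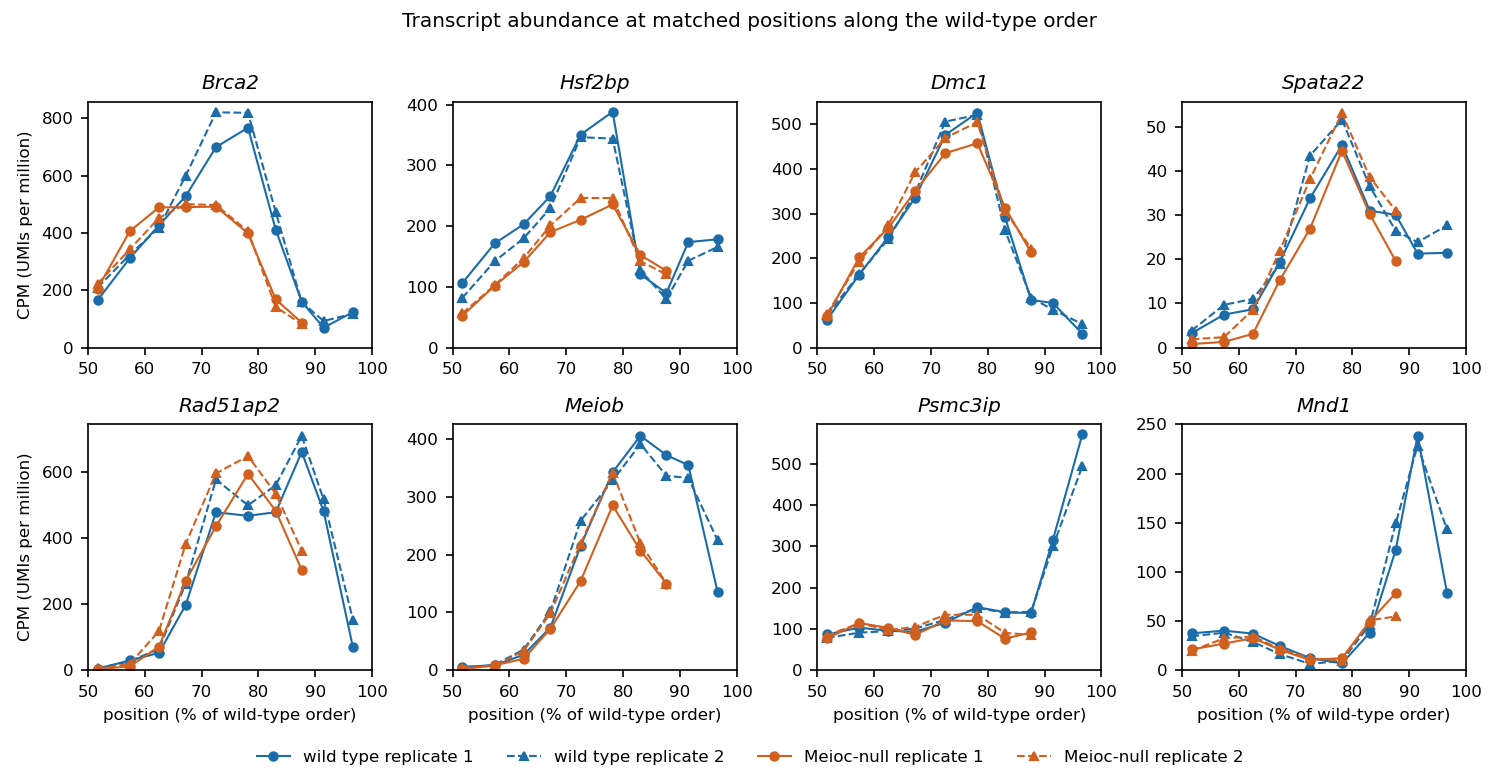
CPM (y axis, a scale for each gene, from 0) in bins of cells along the wild-type order (x axis, %, from 50 to 100), with 1 line per library in the colours and symbols of the plot by cluster. *Brca2* lines of the genotypes are apart at a position of 78.2%. *Dmc1* lines of the genotypes cross before the last shared bin (87.6%), where those of *Meioc*-null are higher. The rise of *Psmc3ip* above 153 CPM lies beyond the last *Meioc*-null bin, and wild-type *Mnd1* is at 122 and 149 CPM in that bin, before its maxima of 239 and 229 CPM in the next.

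Onset was read over the positions that all 4 libraries covered, up to 87.6%. *Dmc1* reached 25% of its maximum at 55.6% and 55.3% in wild type and at 53.6% and 54.2% in *Meioc*-null, *Rad51ap2* at 66.2% and 65.2% against 64.3% and 63.3%, and *Meiob* at 68.3% and 66.9% against 67.2% and 66.3%. *Spata22* reached it at 63.7% and 63.6% against 65.6% and 64.2%, and *Hsf2bp* at 51.1% and 52.2% against 52.5% and 52.3%. *Dmc1* and *Rad51ap2* positions were earlier and those of *Spata22* later in both *Meioc*-null libraries, without a test. They were read along the main placement only. With placement by genes not called between genotypes, *Rad51ap2* in cluster 7 turned from -0.16 to 0.72 (adjusted p = 0.0234 by edgeR). *Dmc1* there turned from -0.06 to 0.09, and onset was not read along that placement. *Hsf2bp* positions all but touched at 25%, and at 50% they were earlier in *Meioc*-null (59.5% and 59.8% against 61.1% and 61.6%). *Brca2* stood above 25% of its maximum from the first bin in both *Meioc*-null libraries and reached it at 36.6% and 51.5% in wild type. *Psmc3ip* stood above it from the first bin in all 4 libraries, and *Mnd1* in all but wild-type replicate 2, which reached it at 3.20%. Positions are relative to the maximum of each library, so that a lower maximum lowers the level to be reached, and the maxima were lower in both *Meioc*-null libraries for 7 of the 8 genes, all but *Spata22*. That of *Brca2* was 768 and 821 CPM against 492 and 501 CPM, that of *Dmc1* 527 and 522 CPM against 458 and 505 CPM, and that of *Rad51ap2* 659 and 708 CPM against 593 and 647 CPM. That of *Hsf2bp* was 388 and 346 CPM against 236 and 246 CPM, and that of *Meiob* 406 and 392 CPM against 285 and 342 CPM.

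Across clusters the difference itself changed. The genotype difference in cluster 10 minus that in cluster 7 passed the threshold for all 8 genes, as it did for 41.1% of all genes (edgeR quasi-likelihood test with library terms). It was 1.44 for *Mnd1* (SE 0.17, adjusted p = 2.36e-10), 1.22 for *Psmc3ip* (SE 0.11, adjusted p = 8.65e-15) and 0.77 for *Rad51ap2* (SE 0.18, adjusted p = 0.00138). It was -1.08 for *Spata22* (SE 0.27, adjusted p = 0.000967), -0.82 for both *Dmc1* (SE 0.095, adjusted p = 1.04e-10) and *Hsf2bp* (SE 0.13, adjusted p = 2.22e-06), 0.68 for *Brca2* (SE 0.10, adjusted p = 2.27e-07) and 0.67 for *Meiob* (SE 0.26, adjusted p = 0.0497). Without *Meioc*-null replicate 2 both *Rad51ap2* (adjusted p = 0.122) and *Meiob* (adjusted p = 0.495) were lost. *Meiob* was also lost without wild-type replicate 1 (0.137) or *Meioc*-null replicate 1 (0.2), with DESeq2's size factors (0.104) and with genes kept only if 25% of cells had a UMI (0.0916).

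Shares of cells were compared at equal depth. After thinning, *Dmc1* had a UMI in 48.4% and 48.6% of wild-type cells of cluster 10 and in 79.6% and 73.5% of *Meioc*-null cells (unthinned, 79.3% and 76.2% against 95.1% and 98.2%). *Mnd1* had one in 38.1% and 44.2% against 17.3% and 23.6%, *Psmc3ip* in 56.3% and 54.4% against 34.7% and 32.0%, and *Meiob* in 84.1% and 81.8% against 56.6% and 61.8% (unthinned, 67.1% and 67.7% against 47.3% and 53.8%, 78.7% and 80.5% against 64.0% and 73.8%, and 98.3% and 97.5% against 84.7% and 92.8%). The share was higher in both *Meioc*-null libraries for *Dmc1* and lower in both for the other 3. *Brca2* in cluster 9 had one in 96.1% and 96.9% against 80.8% and 78.7% (unthinned, 98.7% and 98.9% against 88.8% and 94.7%). Between 2 and 33 shallower cells per library were left out of each of these clusters.

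Summed over all germ cells, 4 of the 8 were called, all higher in wild type, against 11% of all genes, of whose 2180 calls 1836 were higher in wild type: *Meiob* (1.48, SE 0.25, adjusted p = 0.0211), *Mnd1* (1.17, SE 0.15, adjusted p = 0.00215), *Psmc3ip* (0.98, SE 0.12, adjusted p = 0.00143) and *Hsf2bp* (0.51, SE 0.10, adjusted p = 0.0117). *Dmc1*, at 86.0 and 103 CPM in wild type against 129 and 115 CPM in *Meioc*-null, was not called. Without *Meioc*-null replicate 1 or 2, *Hsf2bp* and *Meiob* were lost, which left 2 genes each time, against 3.38% and 4.15% of all genes. *Meiob* was also lost without a filter on low counts (adjusted p = 0.0737) and *Hsf2bp* with library size only (adjusted p = 0.0719). The block added *Spata22* (0.81, adjusted p = 0.00022) and *Rad51ap2* (0.50, adjusted p = 0.0164), against 23.1% of all genes. Only wild type had cells of cluster 11, and *Meioc*-null had a larger share in cluster 7, so level and makeup cannot be told apart in these sums. The median fold change of the 8 was 0.68 here and 0.53 in cluster 10, against -0.02 and -0.03 over all genes tested.

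Other genes of the pathway were listed by function. In cluster 10, where 52.4% of all genes were called, 5 of 12 mediators were called (2 higher in wild type, 3 higher in *Meioc*-null), as were 3 of 5 single-strand binding genes (1 and 2), 3 of 11 genes that oppose strand exchange (1 and 2), 5 of 7 genes of break formation (2 and 3) and 6 of 10 of the synaptonemal complex and axis (3 and 3). *Rpa1*, a subunit of the general single-strand binding complex, was higher without *Meioc* in cluster 10 (-1.53, adjusted p = 2.62e-07), as was *Mei4*, a break formation gene counted at 0.820 to 3.75 CPM (-1.52, adjusted p = 0.0102). *Spo11*, the break-forming enzyme, was lower without *Meioc* in cluster 10, at 26.9 and 33.2 CPM against 108 and 96.4 CPM (1.80, SE 0.14, adjusted p = 1.54e-14). In cluster 8, where 32.2% of all genes were called, the calls higher in wild type against higher in *Meioc*-null were 3 and 1 for mediators, 1 and 1 for single-strand binding, 3 and 1 for opposing genes, 4 and 0 for breaks and 3 and 0 for the axis. There *Spo11* was called too (0.92, adjusted p = 0.000246), and *Rpa1* (-0.24, adjusted p = 0.427) and *Mei4* (0.38, adjusted p = 0.0592) were not.

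*Spo11* was also lower without *Meioc* in cluster 6 (1.53, adjusted p = 0.029, at 7.92 and 6.31 CPM against 1.93 and 3.37 CPM) and in cluster 9 (1.76, adjusted p = 1.85e-07, at 201 and 203 CPM against 50.6 and 69.1 CPM). In cluster 6 the synaptonemal complex gene *Tex12* (0.70, adjusted p = 0.00165) and the axis gene *Hormad1* (0.62, adjusted p = 0.00688) were lower and *Brca1*, a partner of BRCA2 in loading, higher (-0.68, adjusted p = 0.00982) without *Meioc*. In cluster 7 the called genes that changed most were *Parpbp*, of the list that opposes strand exchange (-0.79, adjusted p = 0.0118), the mitochondrial *Ssbp1* (-0.75, adjusted p = 0.00112), *4930432K21Rik*, which encodes the HSF2BP partner BRME1 (0.67, adjusted p = 0.00635), and *Mei1* (0.63, adjusted p = 0.0105). In cluster 8 they were *Parpbp* again (-2.69, adjusted p = 5.65e-05), *Xrcc3* (1.96, adjusted p = 0.029, counted at 0.470 to 6.11 CPM), *4930432K21Rik* again (1.14, adjusted p = 8.8e-06) and *Syce2* (0.93, adjusted p = 0.000571). In cluster 9, *Rec114* (-1.04, adjusted p = 0.00158) and *Hormad1* (-0.81, adjusted p = 0.00321) were higher and the helicase gene *Rtel1* (0.84, adjusted p = 0.0202) lower without *Meioc*. Over all germ cells *Spo11* (1.86, adjusted p = 0.000515), *Sycp2* (0.96, adjusted p = 0.0143), *Nabp2* (0.70, adjusted p = 0.0118) and *Swi5* (0.60, adjusted p = 0.0405) were higher in wild type. *4930432K21Rik*, at 95.4 and 108 CPM in cluster 8 of wild type against 52.5 and 49.6 CPM, was called in the same direction as *Hsf2bp* in clusters 7 and 8 and in the opposite direction in cluster 10 (0.52, adjusted p = 0.0177).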

How the data were processed

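Single cells of P15 testes were captured with the 10x Genomics 3′ v3.1 chemistry, 1 library per mouse. The authors aligned reads and counted UMIs with Cell Ranger 4.0.0 (mm10), and the deposited counts are whole UMIs per gene and barcode, not normalized. Here, barcodes with over 1000 genes and under 10% mitochondrial UMIs were kept, the 690 to 996 barcodes per library with the highest doublet scores were removed (0.8% per 1000 barcodes), and wild-type germ cells were clustered with scanpy 1.11.5 on 2000 variable genes without the listed genes. A shallow cluster of 467 wild-type cells with germ markers (median of 3098 UMIs) was left out for its depth, as were the cells placed with it. Cells of all libraries were placed by their 30 nearest wild-type cells, and 99.0% of wild-type cells took their own cluster. UMIs were summed per library and cluster where every library had at least 50 cells, genes with at least 20 UMIs were kept, and genotypes were compared with edgeR 4.0.16 (TMM, quasi-likelihood, Benjamini-Hochberg). DESeq2 1.42.0, other scalings and filters, other placements, single left-out libraries and a replicate block were alternatives. Labels tie each replicate number to a littermate pair, and same-numbered libraries deviated together (correlation 0.208 to 0.441), so the blocked value is printed where it changes a call. The genes and lists were chosen with earlier results of these data known; partners named are, per cluster, up to 4 called list genes of largest fold change, less those not reported here. Each library is 1 mouse, so p-values rest on 2 mice per genotype. The edgeR steps were tested on simulated data.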

Additional observations from a re-analysis of the deposited data

Results flagged for a closer look

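For all 8 genes the genotype difference (log2, wild type over *Meioc*-null) changed between the preleptotene cluster 7 and the spermatocyte cluster 10, by edgeR's quasi-likelihood test of the change itself with Benjamini-Hochberg adjustment over 14955 genes, of which 41.1% changed. The difference in cluster 10 minus that in cluster 7 was 1.44 for *Mnd1*, 1.22 for *Psmc3ip*, 0.77 for *Rad51ap2*, 0.68 for *Brca2* and 0.67 for *Meiob*. It was -1.08 for *Spata22* and -0.82 for both *Dmc1* and *Hsf2bp*. The *Meiob* value was close to the threshold (adjusted p = 0.0497). Cluster 10 held few *Meioc*-null cells in its later stretch (7 and 17, against 178 and 436 wild-type cells). Among its earlier cells the difference itself was 0.48 for *Mnd1* in place of 1.49, and *Rad51ap2* was not called (0.36, adjusted p = 0.067); the change from cluster 7 was not tested for these cells.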

How the results depend on the processing

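Of the 20 called values of the 8 genes, 11 were called under every alternative run and none reversed. The number of the 8 called moved by over 1.5 times as follows. In clusters 3 and 4 it was 1 in each without a filter on low counts and 1 in each with the replicate block, and 0 to 1 when a library was left out, against none. In cluster 5 it was 0 with DESeq2, with library size only, without doublet removal, with a mitochondrial limit of 5%, with at least 8 clusters and with placement without called genes, and 3 with the block. In cluster 6 it was 0 with DESeq2, 4 with the block, 0 with placement without called genes and 1 to 3 when a library was left out. In cluster 7 it was 2 without the filter, with library size only and with 15 neighbours, 3 with the block, 4 with placement without called genes and 1 to 3 when a library was left out. In cluster 8 it was 6 with the block, 7 with placement without called genes and 2 to 5 when a library was left out. Leaving out a library gave 1 to 4 in cluster 9 and 2 to 6 over all germ cells. Placement without the 8763 called genes put 87.0% of wild-type cells into their own cluster. With the block, 1.87%, 2.41%, 6.47%, 4.75%, 30.5% and 44.1% of all genes were called in clusters 3 to 8. With placement without called genes, 34.2% were called in cluster 8. DESeq2 called 16 and 29 of all genes in clusters 5 and 6. For the remaining settings in clusters 3 to 7 the share of all genes is not given, so those counts cannot be read against it. The cause of the changes in the number of the 8 called was not tested.

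Among values that did not pass the test, some changed sign. *Brca2* in cluster 7 was at -0.018 without the filter, -0.040 with library size only, -0.0032 without doublet removal, -0.00086 with 15 neighbours, -0.0025 without cells far from wild type and -0.010 with at least 8 clusters. *Dmc1* and *Rad51ap2* in cluster 7 were at 0.093 and 0.72 with placement without called genes, where *Rad51ap2* was called (adjusted p = 0.0234 by edgeR). *Psmc3ip* in cluster 8 was at -0.015 without the filter and -0.091 with library size only, and *Rad51ap2* in cluster 8 at -0.070 with at least 8 clusters. When a library was left out, values in cluster 7 ranged from -0.089 to 0.11 for *Brca2*, from -0.12 to 0.0032 for *Dmc1*, from -0.13 to 0.075 for *Psmc3ip* and from -0.44 to 0.098 for *Rad51ap2*. In cluster 8 they ranged from -0.055 to 0.16 for *Psmc3ip* and from -0.0015 to 0.51 for *Rad51ap2*. In cluster 9 they ranged from -0.045 to 0.28 for *Dmc1*, from -0.088 to 0.41 for *Meiob* and from -0.12 to 0.35 for *Spata22*, and in cluster 10 from -0.49 to 0.084 for *Spata22*. Of 49 further uncalled values in clusters 1 to 6 and all germ cells, 21 changed sign under some alternative. Library size only and the earlier cells of cluster 10 were alternatives chosen after seeing the data. With at least 8 clusters, clusters 4 and 5 were matched to 1 cluster, as were clusters 8 and 9. The later cells of cluster 10 could not be tested, and a mitochondrial limit of 5% left only all germ cells and clusters 3 and 5 to test. The replicate block changed no call other than those printed beside the results. *Spata22* and, in spermatogonia, *Meiob* and *Rad51ap2* rest on few UMIs, which limits what their comparisons there can show.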
